A study of Homo sapiens with 6 samples.

Results

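The autophagy machinery genes are a list of 36 human genes that encode the proteins of autophagosome formation and of cargo selection, chosen by symbol and sorted here into 6 groups by role. All 36 symbols were found, each on 1 row, among 24462 different gene symbols on 25737 rows of the deposited count table. RNA was measured in U87MG, a long-established line of human glioblastoma cells. The medium for 24 h was DMEM without serine and glycine, or DMEM that held both. The libraries are named here by their titles as deprived 1 to 3, titled S/G(-), and complete 1 to 3, titled S/G(+). All cells were kept beforehand in DMEM with 10% fetal bovine serum and antibiotics, the labels give the cell state as naïve, and no genotype change or other agent is named.

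Macroautophagy encloses cytoplasm in a growing membrane sac, the phagophore, which closes into an autophagosome and fuses with lysosomes, so that its contents are broken down and amino acids are released. The ULK1 kinase complex starts the process when nutrients fall, a lipid kinase complex around PIK3C3 then marks the membrane with phosphatidylinositol 3-phosphate, and ATG9A, ATG2 and WIPI proteins bring lipid to it. A pair of ubiquitin-like conjugation systems attach ATG8 proteins (the LC3 and GABARAP families) to the membrane, where cargo receptors such as SQSTM1 bind them. The activity of the pathway is set largely by phosphorylation and by lipidation of ATG8 proteins, which transcript levels do not show.

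Total counts ran from 6249706 to 7247995 per library, and 3 counts, the floor used here, corresponded to 0.414 to 0.480 CPM (counts per 1000000), a limit that covers counting error only. The libraries read the 3′ ends of transcripts, so counts do not scale with transcript length. Levels below are CPM scaled by the trimmed mean of M-values (TMM). Whether the 3 libraries of a medium stem from independent cultures is not labelled, and p-values here refer only to how these libraries vary, which may be technical. In such bulk samples, fewer cells with a transcript and less of it per cell cannot be told apart.

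Deprived 1, deprived 3 and complete 1 stood apart from the other 3 libraries, across the labels. PHGDH, the first enzyme of serine synthesis, lay at 193 to 212 CPM in these and at 59.0 to 64.4 CPM in the rest. ASNS, the asparagine synthetase gene that responds to amino acid shortage, lay at 134 to 152 CPM and at 19.9 to 26.2 CPM in the same order. Whether the titles of deprived 2 and complete 1 were exchanged was not tested. Every mean, fold change and call by label takes the titles as given and would change if they were. The division was singled out from measured values, so counts by it are descriptions, and a fit without deprived 2 and complete 1 is given beside that of all 6. Of the glioma line markers, VIM (5110 to 6914 CPM), CD44 (542 to 862 CPM) and NES (42.2 to 68.0 CPM) were present, whereas S100B and AQP4 had 0 counts and GFAP and SOX2 did not pass 0.891 CPM. VIM, CD44 and NES were lower in deprived 1, deprived 3 and complete 1, and CHI3L1 (133 to 163 CPM against 56.5 to 64.2 CPM) was higher there. The part of these differences in the results was not tested. CDKN2A and CDKN2B, known to be deleted in this line, had 0 counts in every library. Although the labels call the cells epithelial, the epithelial markers CDH1 and KRT5 had 0 counts, KRT14 reached 0.139 CPM and EPCAM 1.66 CPM. Leukocyte markers summed to 0.277 to 0.709 CPM and endothelial markers to 0.743 to 3.44 CPM, with CD3D, CD3E and AIF1 at 0 counts. Of the neuronal markers RBFOX3 did not pass 0.446 CPM, while SNAP25 (25.5 to 42.4 CPM) and SYT1 (31.1 to 37.3 CPM) were present. SNAP25 too was lower in deprived 1, deprived 3 and complete 1, at 25.5 to 31.6 CPM against 38.9 to 42.4 CPM, and SYT1 showed no such order.

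The comparison of the media asked which transcripts respond when serine and glycine are withheld. By label, 0 of the 35 tested autophagy machinery genes were called by the quasi-likelihood test of edgeR (threshold 0.05 after Benjamini-Hochberg adjustment), against 0.0% of all 13068 genes tested. Their adjusted edgeR p was at least 0.999, and the smallest unadjusted p was 0.108, for ULK1. At an unadjusted p under 0.05 there were 0 of 35 against 1.89% of all genes, and DESeq2 and limma-voom also called 0 of them. The groups by label did not overlap for 0 of the 35, against 6.97% of all genes tested. The log2 fold changes, deprived over complete, ran from -0.30 for ATG4A to 0.45 for GABARAPL1, with 24 of 35 above 0 against 51.0% of all genes. Their median was 0.06, against 0.0033 for all genes tested, and ran from -0.0009 without complete 2 to 0.15 without complete 1. The remaining member, ULK2, was below the filter on low counts. In simulated data without the division of libraries, the edgeR test called 22.4% of genes changed 1.5-fold. The 0 calls by label therefore do not show that levels were unchanged.

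**Figure D1:**
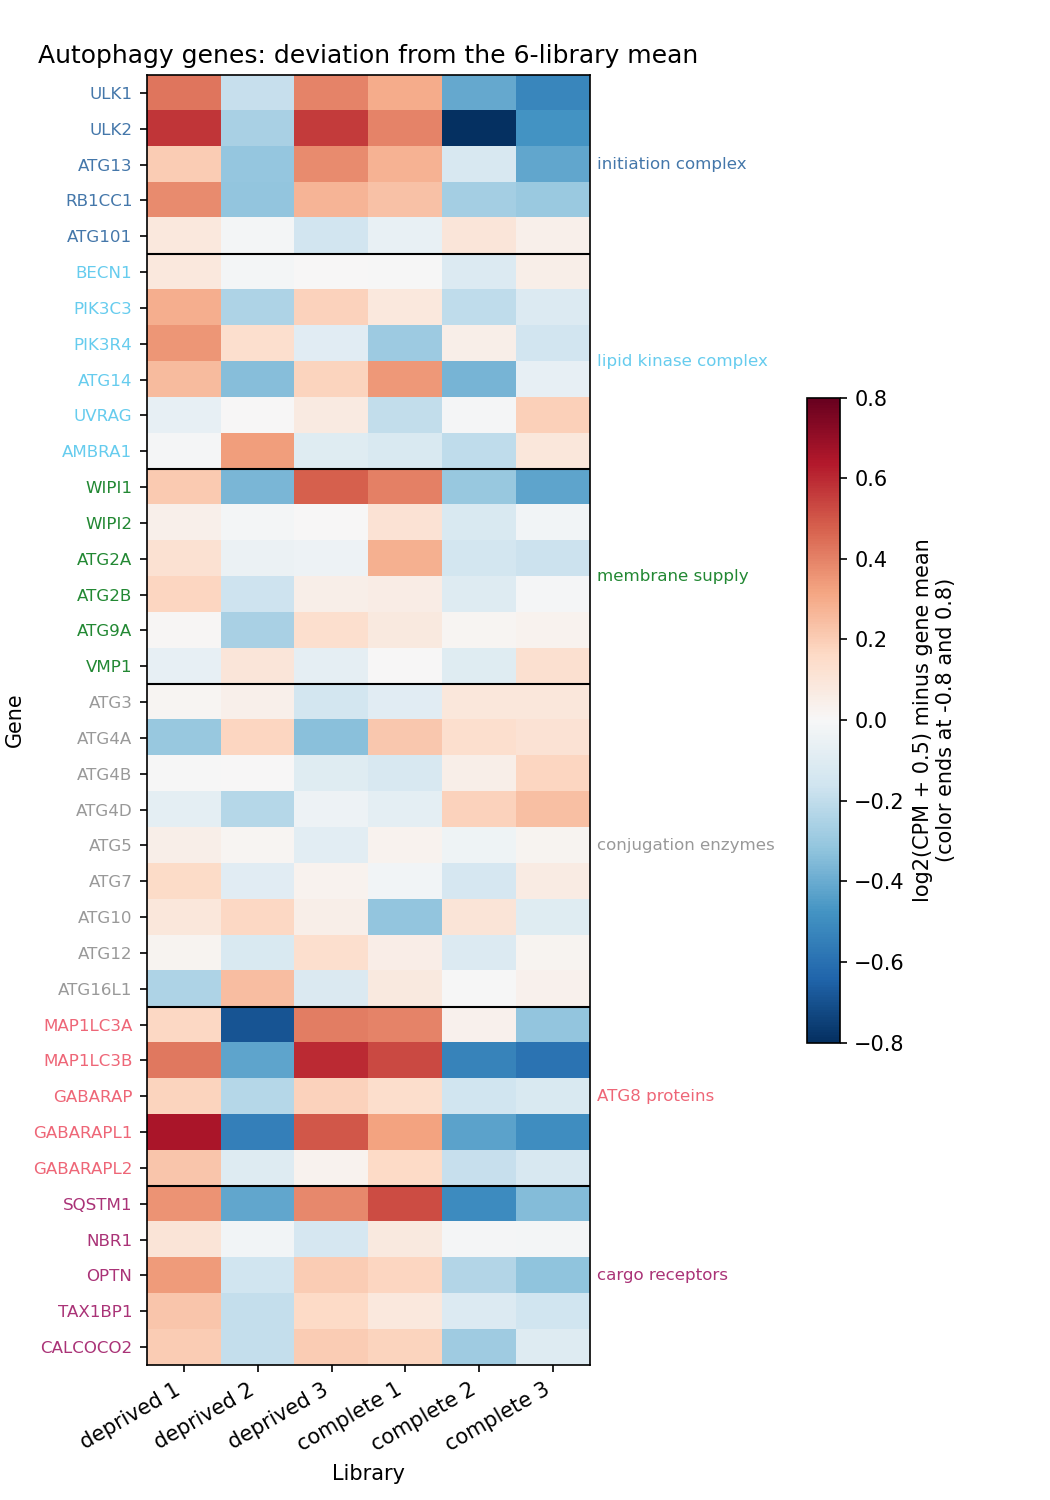
Heat map of the 36 autophagy machinery genes (rows, grouped and colored by role) in the 6 libraries (columns). Color is log2(CPM + 0.5) minus the mean of the gene over the libraries, with the color scale ending at 0.8 on either side of 0. Deprived 1, deprived 3 and complete 1 are red for most rows of the initiation, ATG8 and receptor groups, while the conjugation enzymes show no such columns.

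Many of the 36 levels were ordered across the labels. For 18 of the 35 tested members, or 51.4%, deprived 1, deprived 3 and complete 1 held the 3 highest values, against 18.3% of all genes tested. The 3 lowest values lay there for 2 of 35, or 5.71%, against 17.7%. The highest level was at least 1.5 times the lowest for 11 of 35 tested members, against 40.4% of all genes tested, a ratio that counting error also raises in low genes. By role, the 3 highest values lay in these libraries for 3 of 4 tested genes of the initiation complex, 2 of 6 of the lipid kinase complex and 4 of 6 of membrane supply. The same held for 0 of 9 conjugation enzymes, 5 of 5 ATG8 genes and 4 of 5 cargo receptors. These counts take the order alone, whatever its size. In membrane supply, ATG2A lay at 26.23 CPM in deprived 3 and 26.15 CPM in deprived 2. WIPI2 lay at 100.1 and 98.6 CPM in the same libraries. Summed over each group, the ATG8 genes stood at 632, 429 and 635 CPM in deprived 1, 2 and 3 and at 627, 429 and 430.0 CPM in complete 1, 2 and 3. The 9 conjugation enzymes together stayed between 441 and 469.6 CPM in all 6 libraries.

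The initiation complex senses nutrient and energy signals and phosphorylates the factors that follow. ULK1, its kinase, measured 78.3, 51.0 and 76.7 CPM in deprived 1, 2 and 3 and 71.4, 43.6 and 40.2 CPM in complete 1, 2 and 3. Deprived 2 lay with complete 2 and 3, and complete 1 with deprived 1 and 3, so the labels overlapped. The label means were 68.7 ± 15.3 and 51.8 ± 17.1 CPM (SD, n = 3), a log2 fold change by label of 0.41 ± 0.23 (standard error), within the spread between libraries. The value ran from 0.26 without complete 3 to 0.71 without complete 1. ATG13, the regulatory subunit that carries mTORC1 phosphorylation sites, measured 71.8, 50.2 and 81.2 CPM in the deprived and 75.7, 57.0 and 46.6 CPM in the complete libraries, again highest in deprived 1, deprived 3 and complete 1. By label the log2 fold change of ATG13 was 0.18 ± 0.21 (standard error), from 0.03 without deprived 3 to 0.38 without complete 1. RB1CC1, or FIP200, the scaffold of the complex and its most abundant member here, measured 299, 184 and 278 CPM in the deprived and 271, 190.1 and 187 CPM in the complete libraries. The same 3 libraries were high, and the log2 fold change by label was 0.23 ± 0.20 (standard error), from 0.09 without deprived 1 to 0.43 without complete 1. ATG101, the small partner of ATG13, lay between 41.3 and 49.3 CPM in every library with no such order. ULK2, the second kinase, had 8, 3 and 8 counts in the deprived and 6, 1 and 2 counts in the complete libraries, with 0.139 to 1.15 CPM, close to the floor.

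The lipid kinase complex makes the phosphatidylinositol 3-phosphate that marks the phagophore. ATG14, the subunit that directs the complex to the site of autophagosome formation, measured 42.6, 28.1 and 40.4 CPM in the deprived and 45.6, 27.4 and 34.2 CPM in the complete libraries. Its highest library was complete 1, and its log2 fold change by label, 0.06 ± 0.21 (standard error), turned to -0.11 without complete 2, to -0.06 without deprived 1 and to -0.01 without deprived 3. PIK3R4, the regulatory kinase-like subunit, measured 20.5, 17.5 and 14.9 CPM in the deprived and 12.9, 16.5 and 14.3 CPM in the complete libraries, a spread that followed neither the labels nor the other division. By label the log2 fold change of PIK3R4 was 0.27 ± 0.17 (standard error), from 0.15 without deprived 1 to 0.38 without deprived 3. PIK3C3, the catalytic subunit, lay at 36.2 to 52.8 CPM and had its 3 highest values in deprived 1, deprived 3 and complete 1. BECN1, the scaffold subunit, was steadier at 118 to 135 CPM, UVRAG, which replaces ATG14 in a complex of endosomes, lay at 17.4 to 22.9 CPM and AMBRA1, a regulator of ULK1 and BECN1, at 7.20 to 10.7 CPM. CNTD1, which the deposited table gives at 101 to 114 CPM, overlaps the end of BECN1 on the opposite strand, so the 2 counts are uncertain. The ATG14 promoter is shown because ATG14 had its 3 highest values in deprived 1, deprived 3 and complete 1 and its window holds CACGTG, the core of the element bound by TFEB-family factors, printed in capitals. RefSeq places this window, 250 bases before to 50 after the start, at chr14:55411781-55412080, minus strand of GRCh38.p14, and it is printed 5′ to 3′.
ATG14: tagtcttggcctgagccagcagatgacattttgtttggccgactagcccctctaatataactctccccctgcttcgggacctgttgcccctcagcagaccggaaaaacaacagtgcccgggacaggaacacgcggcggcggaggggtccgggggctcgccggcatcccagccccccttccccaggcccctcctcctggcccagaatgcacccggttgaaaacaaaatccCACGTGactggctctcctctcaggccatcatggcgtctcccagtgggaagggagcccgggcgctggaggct

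Membrane supply brings lipid to the phagophore. WIPI1, which reads phosphatidylinositol 3-phosphate, measured 76.4, 51.2 and 92.0 CPM in the deprived and 87.5, 53.3 and 49.0 CPM in the complete libraries. Deprived 1, deprived 3 and complete 1 were high and did not overlap the rest. Its log2 fold change by label was 0.21 ± 0.25 (standard error), and ran from 0.01 without deprived 3 to 0.52 without complete 1. WIPI2, the relative that recruits ATG16L1, varied less, between 91.8 and 108 CPM. ATG2A, a lipid transfer protein, measured 29.4, 26.2 and 26.2 CPM in the deprived and 33.0, 24.4 and 23.9 CPM in the complete libraries. Its log2 fold change by label, 0.01 ± 0.15 (standard error), turned to -0.05 without deprived 1, to -0.06 without complete 2 and to -0.07 without complete 3. ATG2B, its paralog, lay at 41.4 to 52.3 CPM, ATG9A, the scramblase of the small vesicles that seed the membrane, at 28.9 to 38.1 CPM, and VMP1, a scramblase of the endoplasmic reticulum, at 152 to 178 CPM. ARSG, over the end of WIPI1 on the opposite strand, had 0.142 to 1.00 CPM. ATG9A and GABARAP share their ends with the genes AC068946.2 and AC120057.2 on their own strand, and ATG101 lies over AC025259.1 on the opposite strand, so reads there may be divided. VMP1 and ATG9A did not follow the division by library.

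**Figure D2:**
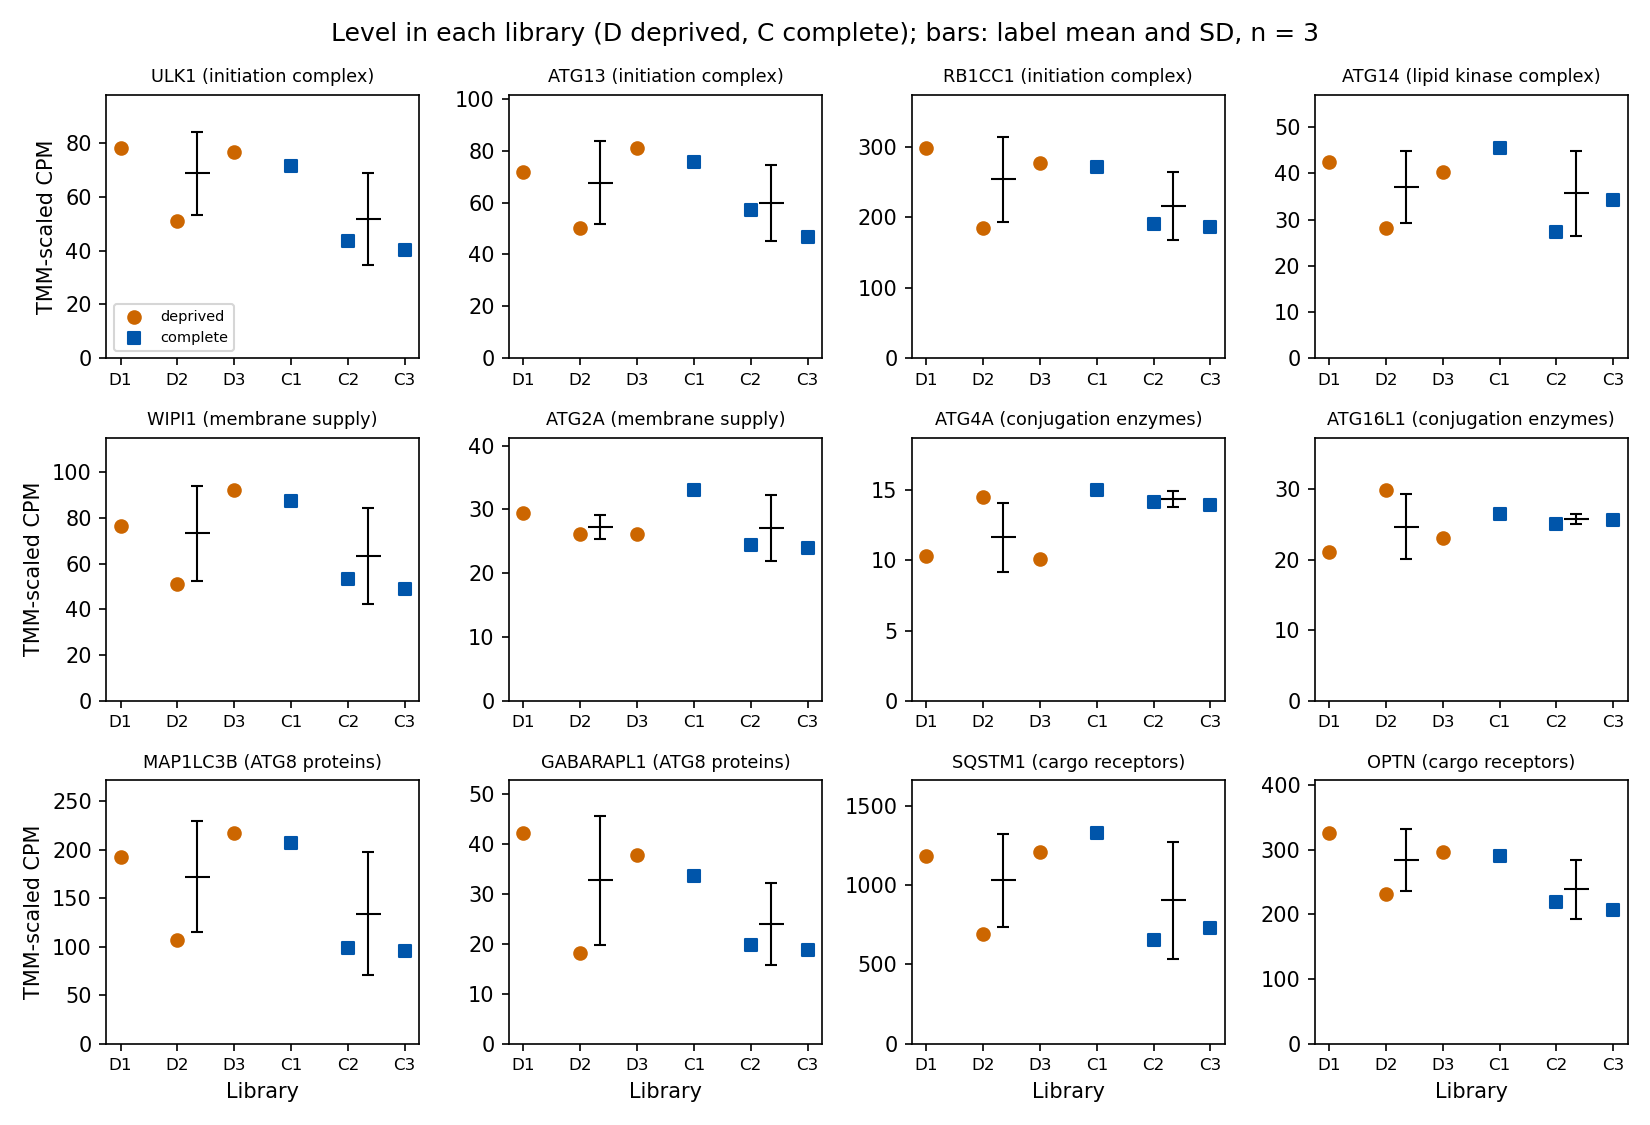
TMM-scaled CPM (vertical axes, from 0) of 12 autophagy machinery genes in each library (circles deprived, squares complete), with the mean and SD of each label (n = 3). For ULK1, WIPI1, MAP1LC3B, GABARAPL1, SQSTM1 and OPTN, deprived 2 lies with complete 2 and 3, and complete 1 with deprived 1 and 3. ATG4A and ATG16L1 show no such arrangement.

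The conjugation enzymes process ATG8 proteins and attach them to lipid. None of the 9 had a highest level 1.5 times its lowest, and 6 of 9 log2 fold changes by label were below 0, with a median of -0.06. ATG4A, a protease that trims ATG8 proteins, measured 10.3, 14.5 and 10.1 CPM in the deprived and 14.985, 14.1 and 13.96 CPM in the complete libraries, from 71 to 102 counts. Deprived 1 and deprived 3 were low, and complete 1 was the highest, so that this gene departed from the division seen above. Its log2 fold change by label was -0.30 ± 0.18 (standard error), from -0.49 without deprived 2 to -0.21 without deprived 3. ATG16L1, which with ATG12 and ATG5 places the lipidation, measured 21.1, 29.9 and 23.1 CPM in the deprived and 26.5, 25.1 and 25.7 CPM in the complete libraries. Deprived 2 was the highest, and the log2 fold change by label, -0.06 ± 0.15 (standard error), turned to 0.04 without deprived 1.

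ATG12, the ubiquitin-like modifier itself, was the most abundant conjugation gene at 113 to 136 CPM. ATG3, the enzyme that transfers ATG8 to lipid, lay at 76.3 to 90.2 CPM and ATG4B, the main ATG8 protease, at 46.4 to 57.2 CPM. Both had their 3 lowest values in deprived 1, deprived 3 and complete 1, by small margins. The highest of these was 85.7 CPM for ATG3, against at least 87.3 CPM in the rest. For ATG4B it was 50.6 CPM, against at least 50.9 CPM. ATG5, the acceptor of ATG12, was the steadiest of all tested members at 53.5 to 58.5 CPM. ATG7, the activating enzyme of both systems, lay at 50.5 to 61.8 CPM, ATG10, which transfers ATG12, at 11.8 to 16.6 CPM, and the protease ATG4D at 20.04 to 27.9 CPM. KRI1 (46.4 to 63.7 CPM) ends over ATG4D and VGLL4 (61.8 to 71.3 CPM) over ATG7 on the opposite strand, so those counts are uncertain. ATG12, ATG3 and ATG4A, like BECN1, MAP1LC3B and SQSTM1, have a named pseudogene in GENCODE 29 with which reads could have been shared.

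The ATG8 proteins are the markers that become bound to the autophagosome membrane. MAP1LC3B, the LC3 form most used to follow autophagy, measured 193, 107 and 217 CPM in the deprived and 207, 99.005 and 95.2 CPM in the complete libraries. The lowest of deprived 1, deprived 3 and complete 1 was far above the highest of the rest, and the labels overlapped. The label means were 172 ± 57.7 and 134 ± 63.5 CPM (SD, n = 3), and the log2 fold change by label was 0.37 ± 0.33 (standard error). That value ran from 0.17 without deprived 3 to 0.83 without complete 1. GABARAPL1, a GABARAP-family protein, measured 42.2, 18.1 and 37.9 CPM in the deprived and 33.5, 19.7 and 18.7 CPM in the complete libraries, again high in the same 3. Its highest level was 2.34 times its lowest, the largest ratio among tested members, and its log2 fold change by label was 0.45 ± 0.32 (standard error). Leaving out deprived 1 gave 0.22 and leaving out complete 1 gave 0.77. MAP1LC3A measured 14.3, 7.68 and 17.0 CPM in the deprived and 16.9, 13.0 and 10.1 CPM in the complete libraries. Its log2 fold change by label, -0.03 ± 0.30 (standard error), turned to 0.24 without deprived 2 and to 0.17 without complete 1. GABARAP (163 to 217 CPM) and GABARAPL2 (126 to 167 CPM), the other abundant members, varied less, with their 3 highest values in the same libraries.

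The promoters of MAP1LC3B and GABARAPL1 are shown because these had the largest ratios among the ATG8 genes and each held a match to a searched motif. Capitals mark TGACNNNGC, the core of the antioxidant response element, in MAP1LC3B, and TGACGTCA, the cAMP response element, in GABARAPL1. The RefSeq windows lie at chr16:87392086-87392385, plus strand and at chr12:10212627-10212926, plus strand of GRCh38.p14.
MAP1LC3B: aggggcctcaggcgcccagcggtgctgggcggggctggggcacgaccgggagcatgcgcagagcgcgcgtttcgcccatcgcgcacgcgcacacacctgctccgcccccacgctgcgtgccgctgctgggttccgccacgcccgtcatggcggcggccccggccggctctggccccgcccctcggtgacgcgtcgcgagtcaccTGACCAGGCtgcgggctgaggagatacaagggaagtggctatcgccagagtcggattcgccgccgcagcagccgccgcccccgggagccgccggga
GABARAPL1: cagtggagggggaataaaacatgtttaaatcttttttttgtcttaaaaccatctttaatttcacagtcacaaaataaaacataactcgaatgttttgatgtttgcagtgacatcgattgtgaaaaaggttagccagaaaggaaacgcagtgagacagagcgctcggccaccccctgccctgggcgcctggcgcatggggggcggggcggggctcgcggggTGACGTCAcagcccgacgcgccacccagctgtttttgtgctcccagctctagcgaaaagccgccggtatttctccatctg

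The makeup of the family differed between libraries as well. MAP1LC3B held 30.5% of the ATG8 counts in deprived 1 (95% Clopper-Pearson interval 29.1 to 31.8%), 25.0% in deprived 2 (23.4 to 26.6%) and 34.2% in deprived 3 (32.8 to 35.6%). It held 33.0% in complete 1 (31.5 to 34.5%), 23.1% in complete 2 (21.6 to 24.6%) and 22.1% in complete 3 (20.6 to 23.7%). The share was thus highest in deprived 1, deprived 3 and complete 1, and by label it was 29.9% ± 4.63 against 26.1% ± 6.03 (SD, n = 3), with overlap. The share of GABARAP was lower there, at 33.5 to 34.2% in those libraries and 38.0 to 40.8% in the rest. GABARAPL2 held 23.0 to 26.4% and 29.4 to 31.0% in the same order. The levels of both were nevertheless higher in those libraries, and a larger share of MAP1LC3B leaves less for the other genes together. MAP1LC3B2, a near-identical copy of MAP1LC3B whose reads the counting could have shared, had 21.4 to 29.8% of the count of MAP1LC3B, so levels of both are uncertain.

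**Figure D3:**
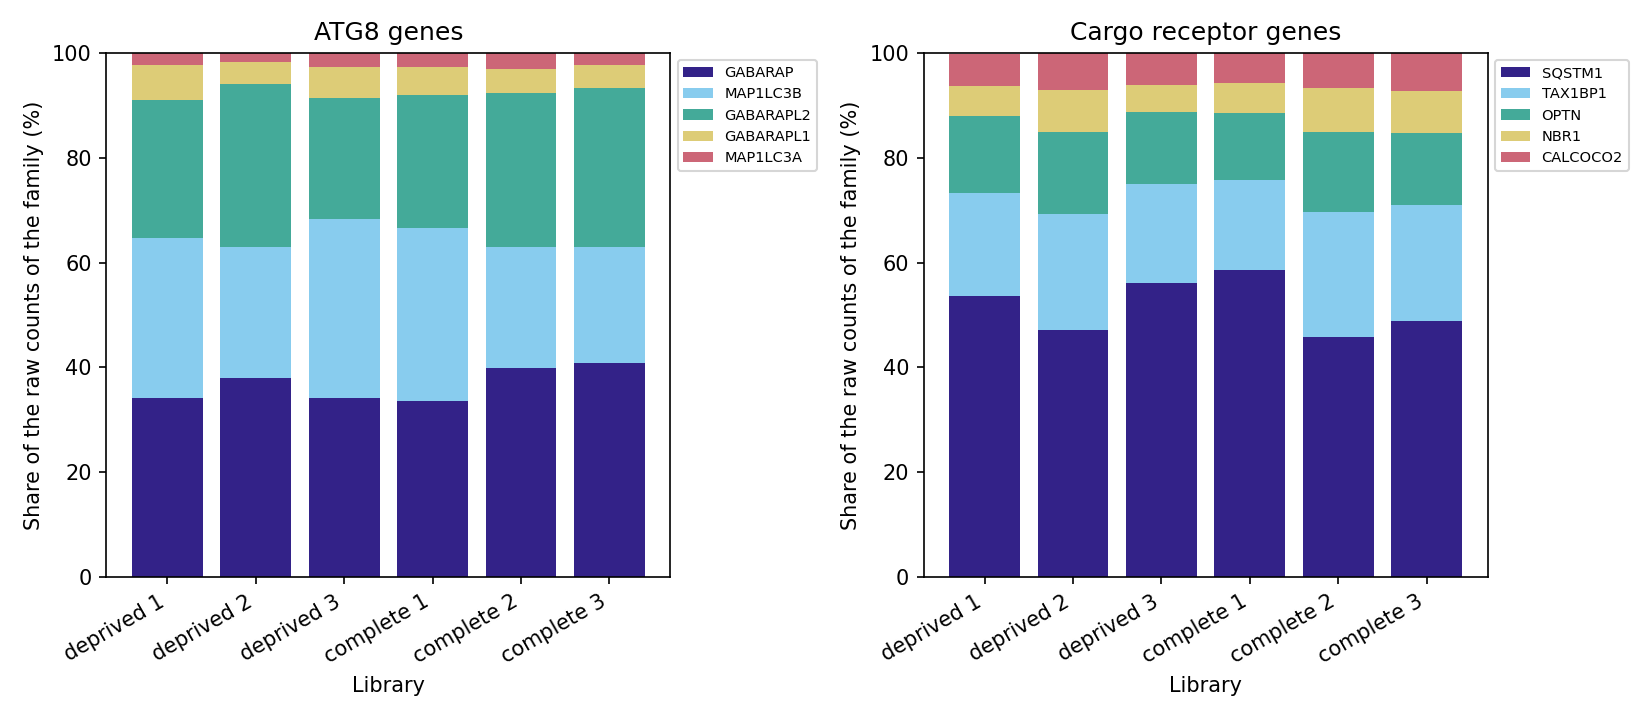
Stacked bars of the share of raw counts (%) that each gene held of its family in each library, ATG8 genes on the left and cargo receptors on the right. MAP1LC3B ranges from 22.1 to 34.2% of ATG8 counts and SQSTM1 from 45.7 to 58.6% of receptor counts, each highest in deprived 1, deprived 3 and complete 1.

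The cargo receptors link ubiquitin or damaged structures to ATG8 proteins and are themselves degraded by autophagy. SQSTM1, or p62, was the most abundant of the 36 genes, with 99.3% of all genes tested having a lower mean level. It measured 1187, 694 and 1212 CPM in the deprived and 1330.3, 654 and 729.8 CPM in the complete libraries. Complete 1 was the highest of all, and deprived 2 lay between complete 2 and complete 3. The label means were 1031 ± 292 and 905 ± 371 CPM (SD, n = 3). The log2 fold change was 0.19 ± 0.28 (standard error), and ran from -0.0009 without complete 2 to 0.58 without complete 1. OPTN, a receptor of mitophagy, measured 326, 231 and 296 CPM in the deprived and 291, 219 and 206 CPM in the complete libraries. By label the log2 fold change of OPTN was 0.25 ± 0.16 (standard error), from 0.14 without deprived 1 to 0.42 without complete 1, and its level was high in the same 3 libraries.

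TAX1BP1 (323 to 431 CPM) and CALCOCO2 (95.8 to 135 CPM), receptors of the same ubiquitin-binding class, had their 3 highest values in deprived 1, deprived 3 and complete 1. NBR1, a relative of SQSTM1, lay at 110.3 to 130.2 CPM without that order, and its share of receptor counts was 5.10 to 5.89% in those libraries and 8.03 to 8.42% in the rest. Shares of TAX1BP1 (17.2 to 19.5% and 22.0 to 23.9%) and CALCOCO2 (5.82 to 6.22% and 6.69 to 7.26%) were lower there too, although their levels were higher. SQSTM1 held 53.7 to 58.6% and 45.7 to 48.8% in the same order, and by label 52.3% ± 4.56 against 51.0% ± 6.73 (SD, n = 3). The end of SQSTM1 lies over exons of a gene on the opposite strand, listed under the older symbol C5orf45 at 30.1 to 56.6 CPM, so both counts are uncertain. SQSTM1, the most abundant member, has 3 starts in the RefSeq table. Its most upstream window, at chr5:179806143-179806442, plus strand of GRCh38.p14, is printed. Which of the 3 starts the counted transcripts used was not tested, since reads of 3′ ends do not show it. The printed window held no match to the 5 motifs searched and so has no capitals.
SQSTM1: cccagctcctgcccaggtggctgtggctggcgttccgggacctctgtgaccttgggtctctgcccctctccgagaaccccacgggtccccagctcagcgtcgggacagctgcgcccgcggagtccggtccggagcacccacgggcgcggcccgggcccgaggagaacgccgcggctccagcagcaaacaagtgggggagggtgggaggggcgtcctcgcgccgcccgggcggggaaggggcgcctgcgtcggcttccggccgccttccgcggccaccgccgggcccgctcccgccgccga

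Without deprived 2 and complete 1, the remaining deprived 1 and 3 were compared with complete 2 and 3. Because the libraries left out were known from their values, this is no independent test of the medium. In that edgeR fit 14 of 35 tested members, or 40.0%, passed an adjusted p of 0.05, against 15.9% of 13145 genes tested. All 14 were higher in the deprived libraries, a direction called for 8.57% of all genes. With lower levels 0 of 35 passed, against 7.38%. The 14 were ULK1, ATG13 and RB1CC1 of the initiation complex, PIK3C3 and ATG14 of the lipid kinase complex, WIPI1, the ATG8 genes MAP1LC3B, GABARAP, GABARAPL1 and GABARAPL2, and the receptors SQSTM1, OPTN, TAX1BP1 and CALCOCO2. None of the 9 conjugation enzymes passed, with a median log2 fold change of -0.15. The median was 0.59 for the 4 tested initiation genes, 0.14 for the lipid kinase complex, 0.13 for membrane supply, 0.44 for ATG8 genes and 0.40 for receptors, against 0.0006 for all genes.

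In the same fit the log2 fold change was 1.08 for MAP1LC3B with a standard error of 0.08, 1.06 for GABARAPL1 with 0.14, 0.88 for ULK1 with 0.11 and 0.79 for SQSTM1 with 0.07. It was 0.72 for WIPI1, 0.61 for RB1CC1, 0.56 for ATG13, 0.55 for OPTN and 0.43 for ATG14. MAP1LC3A, at 0.44 with a standard error of 0.21, had an edgeR adjusted p of 0.165 and was not called.

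**Figure D4:**
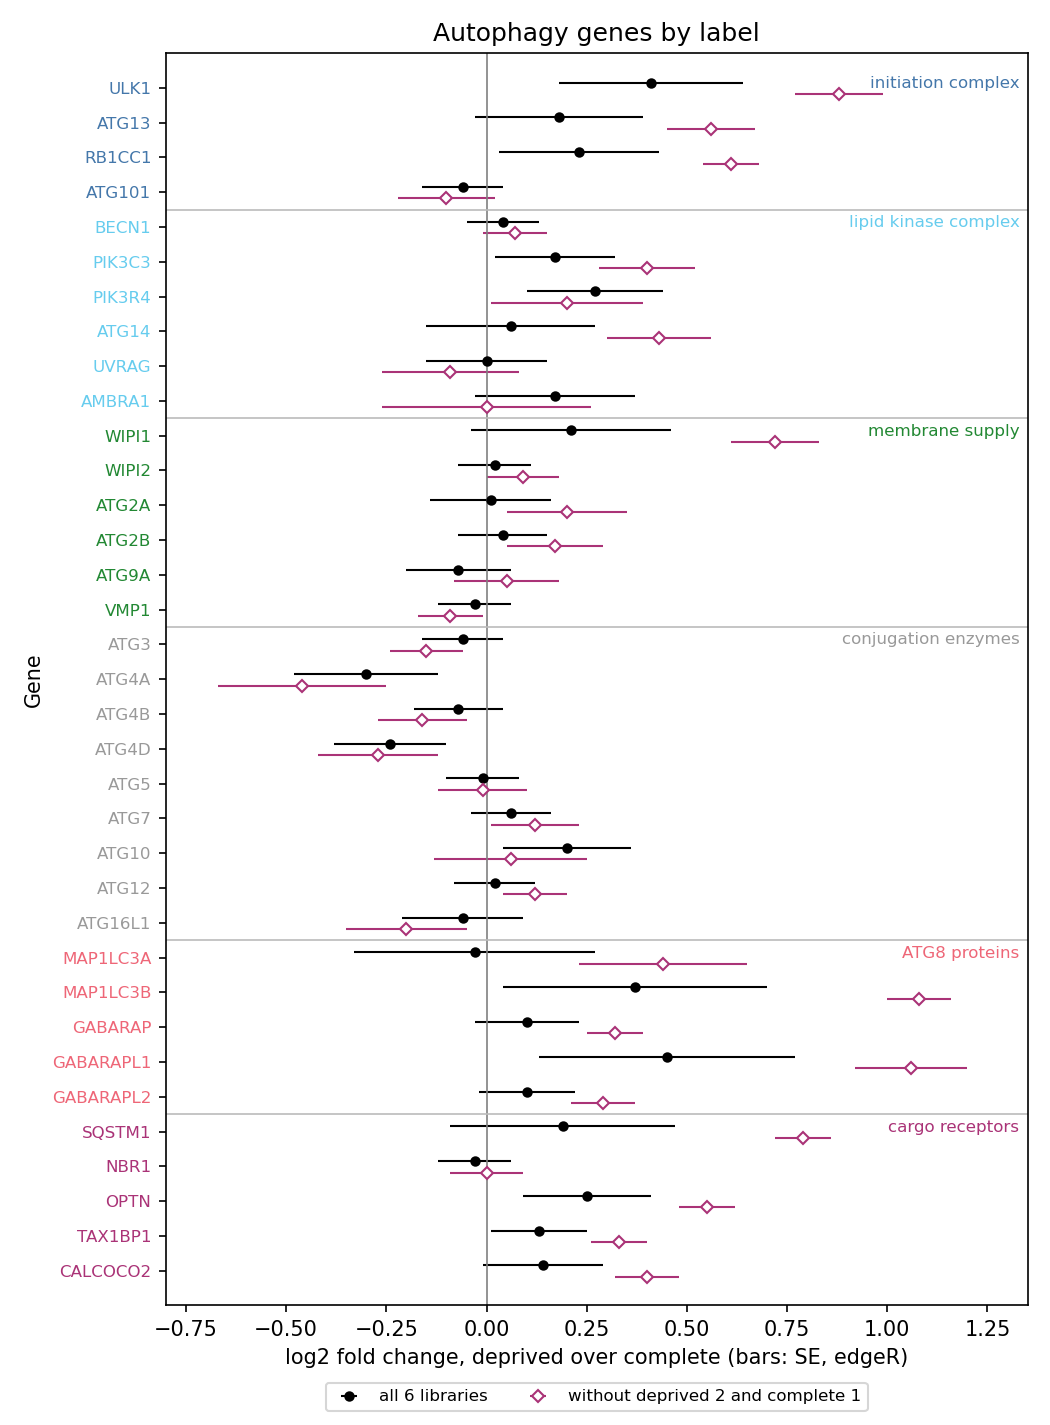
Log2 fold change, deprived over complete, of the 35 tested autophagy machinery genes (horizontal axis). Filled circles show all 6 libraries and open diamonds the fit without deprived 2 and complete 1. Bars are standard errors worked out from the edgeR fold change and test statistic. With all libraries every value lies between -0.30 and 0.45; without those 2, MAP1LC3B and GABARAPL1 reach 1.08 and 1.06 while the conjugation enzymes lie between -0.46 and 0.12.

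A further list of 51 autophagy genes, taken by role, was read from the same fits, and 47 of them passed the filter on low counts. By label 0 of 47 passed the edgeR test, by limma-voom and DESeq2 0 as well, and 0 had an unadjusted edgeR p under 0.05, against 1.89% of all genes. Their median log2 fold change was 0.08, with 37 of 47 above 0, against 51.0% of all genes. The smallest unadjusted edgeR p, 0.0743, belonged to VPS33A, a subunit of the HOPS tether that docks autophagosomes on lysosomes, with 32.8, 17.6 and 33.3 CPM in the deprived and 20.4, 21.3 and 19.3 CPM in the complete libraries. Deprived 1 and 3 alone were high, complete 1 was not, and the log2 fold change by label was 0.46 ± 0.23 (standard error), from 0.31 without deprived 3 to 0.70 without deprived 2. ATL3, a receptor for autophagy of endoplasmic reticulum tubules, measured 150.1, 158 and 148 CPM in the deprived and 130.2, 146 and 142 CPM in the complete libraries, without overlap by label and with a log2 fold change of 0.13 ± 0.08 (standard error), which was 0.08 without complete 1. VPS16, another HOPS subunit, had a log2 fold change by label of -0.27 ± 0.18 (standard error). The labels did not overlap for 4 of the 47, near the 6.97% of all genes. ATL3 and RETREG1 were the higher and TECPR1 and TFEB the lower of these in deprived libraries. TFEB rested on few counts, 13, 14 and 10 in the deprived and 14, 21 and 14 in the complete libraries. RETREG1 lay at 55.3 to 57.3 CPM in the deprived and 52.3 to 54.7 CPM in the complete libraries, a narrow gap. Their unadjusted edgeR p was 0.209 for TFEB and 0.396 for RETREG1.

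Among these further genes, deprived 1, deprived 3 and complete 1 held the 3 highest values for 20 of 47, or 42.6%, against the same 18.3% of all genes. That was 4 of 9 other core genes, 7 of 14 fusion genes, 8 of 15 other selective receptors and 1 of 9 kinases and regulators. Without deprived 2 and complete 1, 15 of 47, or 31.9%, passed with higher levels in deprived libraries, against 8.57% of all genes. With lower levels 0 of 47 passed, against 7.38%. MAP1LC3B2 measured 46.0, 27.9 and 46.5 CPM in the deprived and 49.9, 24.8 and 28.4 CPM in the complete libraries, high in the same 3 libraries as its near copy MAP1LC3B. TMEM41B, a scramblase that works with VMP1, measured 17.2, 18.5 and 17.2 CPM in the deprived and 25.5, 12.7 and 13.5 CPM in the complete libraries, and only complete 1 stood out. VPS39, a HOPS subunit, measured 19.9, 11.2 and 14.9 CPM in the deprived and 17.9, 9.69 and 16.9 CPM in the complete libraries, low in deprived 2 and complete 2. Of the genes below the filter, MAP1LC3C reached at most 0.284 CPM, VAMP8 1.43 CPM and STBD1 1.28 CPM.

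Short motifs were searched on both strands of the RefSeq promoter windows, which held 40 entries for 32 of the 36 members. CACGTG was found in 2 of the 40 windows, those of ATG14 and ATG3, against 7.26% of all 35116 windows. ATG3 had its 3 lowest values in deprived 1, deprived 3 and complete 1, by a small margin (at most 85.7 CPM against at least 87.3 CPM). The antioxidant core TGACNNNGC was found in 3 of 40, those of MAP1LC3B, CALCOCO2 and ATG101, against 13.3% of all windows. TGACGTCA was found in 1 of 40, that of GABARAPL1, against 1.85%. The FOXO site TGTTTAC was found in 1 of 40, that of CALCOCO2, against 3.42%. TGATGNAA, the core of the amino acid response element bound by ATF4, was found in 0 of 40, against 3.62% of all windows. With 40 windows, such counts are too few to set apart from these shares. No printed window held matches to different motifs, so no overlap between motifs could arise there.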

How the data were processed

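U87MG RNA was sequenced in 3 libraries per medium. Per the labels' protocols, the input was 500 ng of RNA and the kit QuantSeq, which reads 3′ ends. The deposited values are unnormalized read counts, 1 row per gene, in a single table from the authors. Alignment used Bowtie2 (version not given), per the submitters' processing notes. For the counter, the build, strand and reads that align in several places, nothing is stated: not given in the sources used here. Columns were matched to samples by title, with 0 left unmatched. In the table, deprived 1, complete 1 and deprived 3 are the first columns, followed by deprived 2, complete 2 and complete 3. Over pairs of libraries the chi-square statistic per gene was 2.42 to 15.5, so no library was a repeat of another.

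Genes were filtered with filterByExpr at a minimum count of 10, scaled by TMM and tested in edgeR 4.0.16 (R 4.3.3) with the quasi-likelihood test of the medium over all 13068 genes that passed, at a Benjamini-Hochberg adjusted p of 0.05. DESeq2 1.42.0, limma-voom (limma 3.58.1), other scalings and filters, the replicate block, summed rows of shared symbols, each library left out, and deprived 2 and complete 1 left out together were alternatives. Standard errors of edgeR fold changes were worked out as the log2 fold change, without its sign, divided by the square root of the quasi-likelihood test statistic. The procedure was tested on simulated data. The members, the further list, its roles, the markers and the alternatives were chosen with earlier results of these data known, and the motifs and printed promoters after values were seen. Values in every library are given for members whose highest level was at least 1.5 times the lowest, and for the 2 members with the largest ratio in each role. Of the further list they are given for genes with a mean of at least 5 CPM and a ratio of at least 2, and statistics for the 3 smallest p; for VPS33A, ATL3 and CCPG1 the values in every library go beyond this rule. Of the 51 further genes, 3 were found under older symbols. Shares of counts have 95% intervals for counting error only, since reads carried no molecular identifiers that are stated. Overlapping genes were read from GENCODE 29 within 500 bases of transcript ends, which flagged 8 members, 6 on the opposite strand. Promoters come from RefSeq, GRCh38.p14, and were matched by symbol, since the build of the counts is not stated. Figures were drawn with Matplotlib 3.10.9 from tables made with pandas 2.3.3 in Python 3.11.15. Outlier tests were not made with 3 libraries per label.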

Additional observations from a re-analysis of the deposited data

How the results depend on the processing

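All 16 alternatives were planned, but with earlier results of these data known. The fit without deprived 2 and complete 1 leaves out libraries singled out from measured values. Every scaling, filter, tool and single library left out kept 0 autophagy machinery genes and 0 further genes called by label, with adjusted p from 0.572 to 1.0 for the named machinery genes. Leaving out deprived 2 and complete 1 together gave 14 of 35 and 15 of 47 calls, against 15.9% of all genes, with medians of 0.59 for the initiation complex, 0.13 for membrane supply, -0.15 for conjugation enzymes and 0.40 for receptors, and 0.44 for MAP1LC3A, which changed sign; the cause was not tested. With 1 library left out, the median ran from -0.0009 to 0.15 for all tested machinery genes and from -0.09 to -0.01 for the conjugation enzymes. Log2 fold changes that changed sign ran from -0.11 to 0.27 for ATG14, -0.07 to 0.17 for ATG2A, -0.22 to 0.04 for ATG16L1, -0.27 to 0.24 for MAP1LC3A and -0.0009 to 0.58 for SQSTM1. Scaling changed no sign among the named genes. Replicate numbers were not taken as pairs. Deviations of same-numbered libraries correlated at 0.384, 0.381 and -0.281, and the best correlation of a library was not always with its own number. The signs of these correlations followed the division of libraries, so they cannot show whether equal numbers mark pairs. With the replicate block 0 autophagy machinery genes were called, and their median was 0.06. Depth limits ULK2, at 1 to 8 counts.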

Other observations

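Other receptors of selective autophagy, from the further list, were mostly well detected. SEC62 and RTN3, receptors for endoplasmic reticulum, stood at 357 to 399 CPM and 174 to 236 CPM, and PHB2, a receptor of the inner mitochondrial membrane, at 179 to 198 CPM. CCPG1, an endoplasmic reticulum receptor that binds RB1CC1, measured 64.8, 37.2 and 66.5 CPM in the deprived and 66.5, 40.6 and 44.4 CPM in the complete libraries, so that deprived 1, deprived 3 and complete 1 did not overlap the rest. The related mitophagy receptors BNIP3 (129 to 158 CPM) and BNIP3L (198 to 264 CPM) had their 3 highest values in the same libraries. RETREG1, found under its older symbol, lay between 52.3 and 57.3 CPM in all 6. CCPG1, RTN3, SEC62, BNIP3 and BNIP3L, PHB2 and RETREG1 were named after their values were seen.

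Among the kinases and regulators, TFE3, a transcription factor of lysosome and autophagy genes, was at 52.1 to 62.1 CPM and its relative TFEB at 1.42 to 2.91 CPM. PINK1, a kinase of mitophagy, lay at 64.5 to 81.4 CPM. These genes too were named after their values were seen.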
